A study of Mus musculus with 9 samples.

Results

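The genes described here run the cell division cycle: cyclins, cyclin-dependent kinases and their inhibitors, the retinoblastoma and E2F proteins, the replication proteins Mcm, Pcna and the type II topoisomerases, and the subunits of the anaphase-promoting complex. They were taken by gene symbol, from the symbol stems Ccna to Ccnl with a digit, Cdk with digits, Cdkn, Mcm, E2f, Anapc, Rb1, Rbl, Pcna and Top2. The choice was made with earlier results of these data known. In all, 57 of the 11315 genes of the deposited tables matched. Of these, 5 are drivers of the cycle (the D cyclins and the kinases Cdk2 and Cdk4), 5 are kinase inhibitors, 7 are pocket proteins or E2F factors, 11 act in replication, 10 are subunits of the anaphase-promoting complex, 8 are kinases or cyclins of transcription and 9 are other kinases and cyclins, while Cdkn2aip and Cdkn2aipnl match only by their names. Ccna2, Ccnb1, Ccne1, Cdk1, Cdk6, Rbl1 and E2f1 were not analysed here.

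RNA was measured by sequencing in cells sorted from brains of C57BL/6 mice at postnatal day 60. There were 3 libraries each of cells positive for a PDGFRa::GFP reporter, which the labels call oligodendrocyte progenitors, for a PLP::GFP reporter, called pre-myelinating oligodendrocytes, and for an NDRG1-eGFP reporter, called myelinating oligodendrocytes. No treatment is given for any group, and the labels do not say how many animals stand behind a library, so p-values measure only the spread between these libraries. Pdgfra is also expressed by fibroblasts, which limits what its reporter marks. In the 10 myelin genes examined the library medians were 17.20 to 17.82 in PDGFRa-GFP, 17.54 to 17.73 in PLP-GFP and 18.06 to 18.14 in NDRG1-eGFP libraries, and in 9 progenitor markers they were 6.79 to 8.87, 6.28 to 6.83 and 4.98 to 7.05 (log2 normalized values). As the log2 of their summed linear values, the progenitor markers were not highest in PDGFRa-GFP libraries, at 14.74 to 15.37, 15.36 to 15.66 and 15.43 to 15.55 in the same order. The libraries labelled progenitors thus held myelin transcripts at a level near that of the others, and the groups are named here by reporter.

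In a dividing cell, D cyclins with Cdk4 or Cdk6 and then cyclin E with Cdk2 phosphorylate the retinoblastoma protein and its relatives, which frees E2F factors to switch on genes of DNA replication. The Mcm proteins form the replicative helicase, Pcna is the clamp that holds DNA polymerases, and the anaphase-promoting complex ends mitosis by marking cyclins for destruction. Oligodendrocyte progenitors keep dividing in the adult brain, and leaving the cycle, with kinase inhibitors such as Cdkn1b, is part of their differentiation. Several relatives of these genes have other work: Cdk7, Cdk8, Cdk9, Cdk12, Cdk13 and Cdk19 act on RNA polymerase II or its Mediator, and Cdk5 acts in postmitotic cells.

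E2F factors bind sites with the core TTTGGCGC or its variants, and the promoters of several Mcm genes carry such sites. These promoters are shown because their genes share the sites and are compared below. The windows run from 250 bases before to 50 bases after the RefSeq start site on GRCm38.p6, 5′ to 3′ on the strand of the gene, with every match to TTTGGCGC, TTTGCCGC, TTTCGCGC or TTTCCCGC, or to their reverse complements, in capitals. In Mcm6, at chr1:128359656-128359955 on the minus strand, 2 of the 3 matches overlap in 1 run of capitals, and the same holds for the 2 matches in Mcm5, at chr8:75109259-75109558 on the plus strand. Mcm7 lies at chr5:138171834-138172133 and Mcm3 at chr1:20820263-20820562, both on the minus strand.
Mcm3: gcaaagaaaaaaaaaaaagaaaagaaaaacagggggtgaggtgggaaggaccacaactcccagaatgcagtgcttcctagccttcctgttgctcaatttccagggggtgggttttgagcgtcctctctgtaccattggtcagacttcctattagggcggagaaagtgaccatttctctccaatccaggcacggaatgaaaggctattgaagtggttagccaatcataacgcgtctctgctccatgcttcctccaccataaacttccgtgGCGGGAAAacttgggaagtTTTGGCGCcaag
Mcm5: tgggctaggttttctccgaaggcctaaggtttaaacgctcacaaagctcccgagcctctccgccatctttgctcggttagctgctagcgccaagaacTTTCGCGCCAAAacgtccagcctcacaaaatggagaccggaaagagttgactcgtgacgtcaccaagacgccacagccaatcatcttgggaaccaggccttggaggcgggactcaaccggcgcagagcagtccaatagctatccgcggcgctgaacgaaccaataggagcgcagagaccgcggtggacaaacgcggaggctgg
Mcm6: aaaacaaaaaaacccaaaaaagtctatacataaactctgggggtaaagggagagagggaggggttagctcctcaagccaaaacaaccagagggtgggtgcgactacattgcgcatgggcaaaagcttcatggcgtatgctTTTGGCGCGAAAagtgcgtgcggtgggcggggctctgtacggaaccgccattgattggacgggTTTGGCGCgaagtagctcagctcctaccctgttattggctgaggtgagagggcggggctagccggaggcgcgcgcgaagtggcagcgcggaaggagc
Mcm7: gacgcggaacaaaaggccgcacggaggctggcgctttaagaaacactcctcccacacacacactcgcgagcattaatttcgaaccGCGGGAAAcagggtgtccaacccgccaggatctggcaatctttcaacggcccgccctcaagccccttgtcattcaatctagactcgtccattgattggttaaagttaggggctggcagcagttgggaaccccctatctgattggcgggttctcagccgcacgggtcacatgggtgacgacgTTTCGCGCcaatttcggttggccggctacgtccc
A promoter was found for 47 of the 57 genes, and 9 of them (19.1%) held a match, against 704 of all 27025 genes with a promoter (2.6%). Those 27025 are all genes of the promoter reference, many of them not among the 11315 genes of the deposited tables. The 9 were Anapc15, Cdk2, E2f2, E2f3, Mcm3, Mcm5, Mcm6, Mcm7 and Mcm8, so that 5 of the 7 Mcm genes with a promoter had one. A match describes the letters of these windows and is not evidence of binding.

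The cell cycle genes did not move in 1 direction. Between NDRG1-eGFP and PLP-GFP cells, NDRG1-eGFP cells held 14 of the 57 genes higher and 12 lower (limma, adjusted p under 0.05), which is 45.6% of them, against 48.3% of all genes called in this comparison (26.1% higher and 22.2% lower). PLP-GFP against PDGFRa-GFP gave 5 higher and 4 lower, or 15.8%, against 17.0% of all genes (8.46% higher and 8.53% lower). NDRG1-eGFP against PDGFRa-GFP gave 5 higher and 6 lower, or 19.3%, against 21.1% of all genes (10.7% higher and 10.4% lower). These shares are near those of the whole table, and so are the counts of genes whose libraries did not overlap between the groups, 41, 23 and 16 of 57, against 66.4%, 42.3% and 35.3% of all genes. The median log2 fold changes of the 57 genes were 0.14, -0.02 and 0.14, against 0.08, 0.03 and 0.14 over all genes. After recentring each library on the median ratio the split was 13 higher and 13 lower, 4 and 5, and 2 and 7 in the 3 comparisons. In all, 28 of the 57 genes were called in no comparison and 1, Anapc13, in all 3. By role, the calls in NDRG1-eGFP relative to PLP-GFP cells were all higher among cycle drivers (3 of 5 genes) and inhibitors (2 of 5). Those among transcription kinases and cyclins were all lower (4 of 8). With each library's trend on transcript length removed, as described below, the calls of Cdk2, Cdk4, Cdkn2d and Cdk12 were lost. Those of Ccnd2, Cdkn1c, Cdk7, Cdk8 and Cdk13 held, and Ccnd3 and Cdk9 were called lower only then. The difference between roles was not tested.

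**Figure D1:**
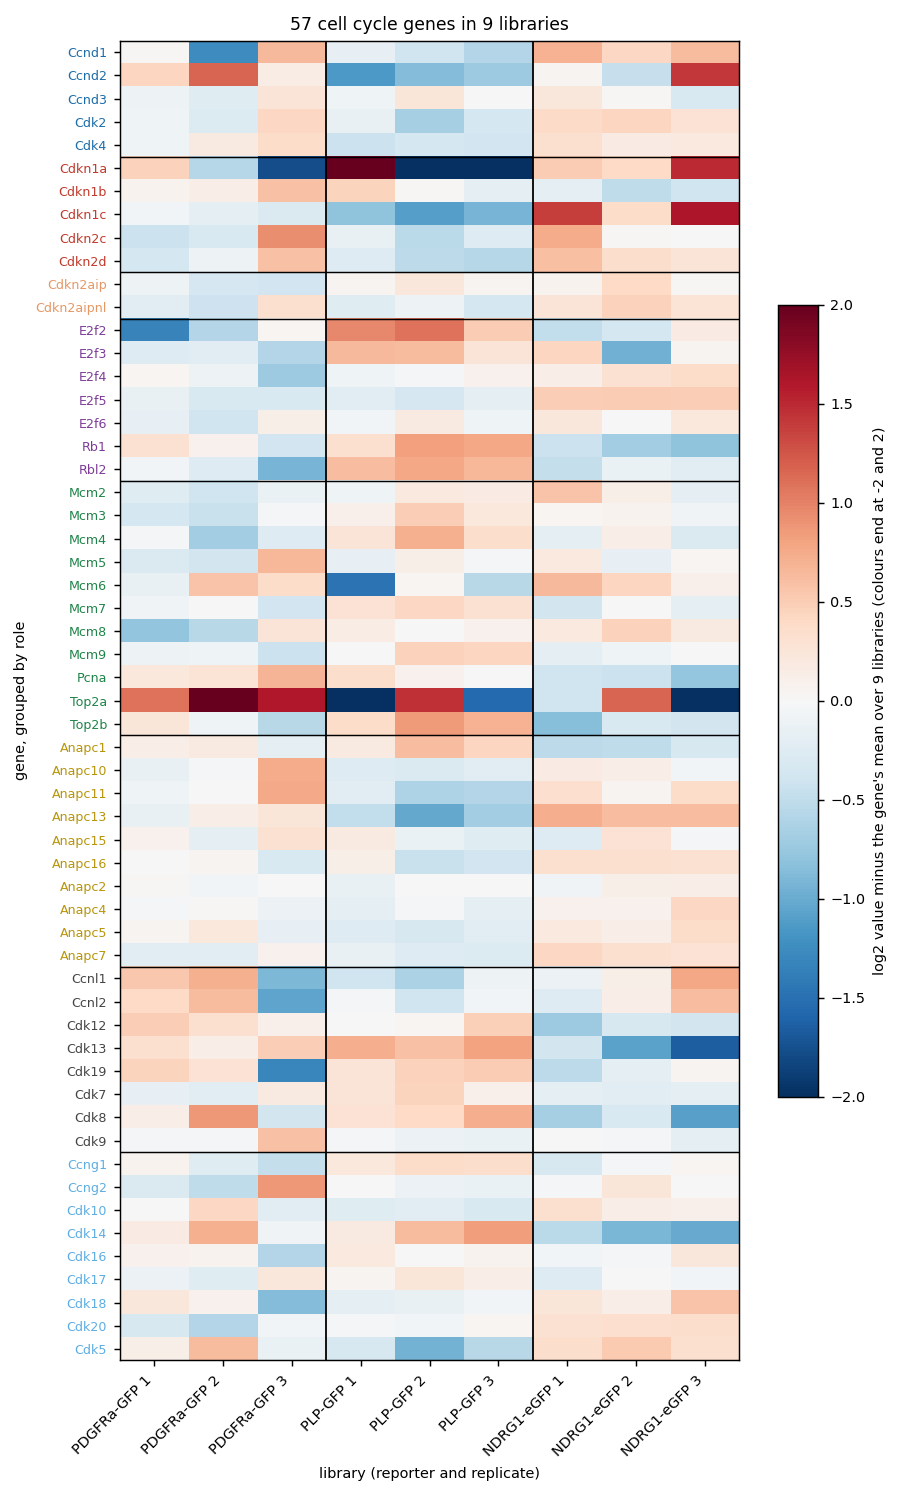
Heat map of the 57 genes (rows, grouped and coloured by role) in the 9 libraries (columns), each cell showing the log2 normalized value minus the mean of that gene over the 9 libraries. Cdkn1a in PLP-GFP replicate 1 is off the scale at the high end, Cdk13 is low in all 3 NDRG1-eGFP libraries, and rows of 1 role do not share 1 colour pattern.

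Several features of the libraries moved with the groups, and their part in the results below was not tested. PDGFRa-GFP replicate 3 stood apart from replicates 1 and 2, with Pearson correlations over all genes of 0.935 and 0.931, against 0.982 between those 2. The median of 10 immediate early genes was 12.64, 12.66 and 8.78 in PDGFRa-GFP replicates 1 to 3, 8.33, 7.88 and 8.21 in PLP-GFP replicates and 12.39, 10.14 and 13.12 in NDRG1-eGFP replicates. The 9 measured fibroblast-like markers had medians of 9.59 to 10.33 in PDGFRa-GFP, 3.14 to 5.66 in PLP-GFP and 7.52 to 9.89 in NDRG1-eGFP libraries, and the 9 microglial markers 7.63 to 8.49, 7.09 to 7.52 and 8.43 to 9.33. On a summed scale (log2 of the summed linear values) the fibroblast-like markers reached 13.03 to 13.98, 7.58 to 9.0 and 12.01 to 13.67 and the microglial markers 11.93 to 12.56, 11.49 to 12.07 and 12.59 to 13.10. Astrocyte markers (10 measured) had medians of 9.51 to 10.13, 8.70 to 9.12 and 9.09 to 9.49, neuron markers (7) of 5.35 to 7.42, 5.26 to 6.03 and 4.74 to 6.64, and endothelial markers (2) of 4.70 to 5.58, 7.54 to 8.60 and 6.32 to 8.14. On the summed scale the astrocyte markers reached 14.08 to 14.96, 13.90 to 14.22 and 14.73 to 15.44. The lowest value of any gene in these tables is 0.29, so no marker stands at 0. In sorted bulk cells, fewer cells of a type and less RNA per cell cannot be told apart.

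Of the genes that mark dividing cells, Top2a and Mki67 were low in all 9 libraries. From the mitosis list described further on, Cdca8 and Tpx2 were picked after their values were seen. Both passed the test for NDRG1-eGFP against PDGFRa-GFP with a positive log2 fold change, Tpx2 in 1 of the 9 fits that left out 1 library. Their group means were low too, at 6.37 to 7.94 and 6.23 to 7.47, against library medians of 10.57. That list had 4 calls among 21 genes in this comparison, all upward (19.0%). Of all genes 21.1% were called, 10.7% upward and 10.4% downward. Top2a, the topoisomerase that untangles chromosomes in dividing cells (chromosome 11, 98992943 to 99024189, GRCm38), had log2 values of 5.48, 7.16 and 5.99 in PDGFRa-GFP libraries, 1.52, 5.85 and 2.83 in PLP-GFP libraries and 3.99, 5.56 and 1.15 in NDRG1-eGFP libraries. It was the lowest of the 57 genes, at the 1.41 percentile of mean level among all genes, and its libraries overlapped between all groups. The fold changes, -2.81 ± 1.37 (SE) for PLP-GFP and -2.64 ± 1.37 for NDRG1-eGFP against PDGFRa-GFP, did not pass the test (limma adjusted p = 0.169 and 0.189). Mki67, the common marker of cycling cells, had values of 4.31, 6.28 and 0.32 in PDGFRa-GFP libraries, 3.81, 5.33 and 0.32 in PLP-GFP libraries and 3.70, 1.17 and 4.86 in NDRG1-eGFP libraries. The libraries of each group ranged widely, and all groups overlapped.

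The D cyclins differed in level and in pattern. Per kilobase of transcript, Ccnd3 stood highest, with group means of 9.02, 9.10 and 9.03 (log2 value per kilobase) for PDGFRa-GFP, PLP-GFP and then NDRG1-eGFP cells, against 5.95, 4.46 and 5.70 for Ccnd2 and 4.54, 4.35 and 5.32 for Ccnd1. Values per kilobase assume that the deposited values were not already scaled by transcript length. Ccnd3 (chromosome 17, 47505051 to 47599691) had log2 values of 10.04, 9.88 and 10.39 in PDGFRa-GFP libraries, 10.04, 10.37 and 10.13 in PLP-GFP libraries and 10.35, 10.16 and 9.82 in NDRG1-eGFP libraries. All 3 groups overlapped, and its log2 fold changes lay between -0.07 and 0.08 (SE 0.20 each; limma adjusted p of 0.790 to 0.978). With the length trend removed Ccnd3 was called lower in NDRG1-eGFP relative to PLP-GFP cells, at -0.51 (limma adjusted p = 0.0433). Ccnd2, the cyclin of many proliferating progenitors (chromosome 6, 127125162 to 127152193), had 8.46, 9.19 and 8.18 in PDGFRa-GFP libraries, 6.89, 7.17 and 7.30 in PLP-GFP libraries and 8.08, 7.57 and 9.45 in NDRG1-eGFP libraries. The PLP-GFP libraries were below every library of the other groups. Ccnd2 was higher in NDRG1-eGFP relative to PLP-GFP cells by 1.25 ± 0.45 (SE, adjusted p = 0.0415) and lower in PLP-GFP relative to PDGFRa-GFP cells, at -1.49 ± 0.45 (SE, adjusted p = 0.0467). With the length trend removed the values were 1.82 and -1.85 and both passed (limma adjusted p = 0.0092 and 0.0287). The calls of Ccnd2 on the values as deposited rest on few libraries. In the 9 fits that each left out 1 library they were made in 3 and 3, with log2 fold changes of 0.71 to 1.65 and -1.71 to -1.20, and with the replicate number as a block the adjusted p-values were 0.0634 and 0.0847. The 2 highest values of each of these groups, like the immediate early medians above, fell in PDGFRa-GFP replicates 1 and 2 and NDRG1-eGFP replicates 1 and 3.

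Ccnd1 (chromosome 7, 144929931 to 144939925) had log2 values of 6.66, 5.37 and 7.29 in PDGFRa-GFP libraries, 6.47, 6.24 and 6.05 in PLP-GFP libraries and 7.34, 7.06 and 7.27 in NDRG1-eGFP libraries. The NDRG1-eGFP libraries lay above the PLP-GFP libraries, while the PDGFRa-GFP libraries spanned both, and the difference of 0.97 ± 0.48 (SE, adjusted p = 0.116) between NDRG1-eGFP and PLP-GFP cells was not called. Genes most like Ccnd2 over the 9 libraries included Plk2, Tia1, Zcchc7 and Prr14 (Pearson r of 0.937 to 0.960), and the 5 most like Ccnd1 were P4hb, Qsox1, E130308A19Rik, Dnaaf2 and Tmem229b (0.938 to 0.945). These correlations describe 9 libraries that fall in 3 groups.

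Cdk4, the kinase partner of the D cyclins (chromosome 10, 127063534 to 127067920), had log2 values of 12.08, 12.36 and 12.54 in PDGFRa-GFP libraries, 11.74, 11.81 and 11.80 in PLP-GFP libraries and 12.50, 12.34 and 12.38 in NDRG1-eGFP libraries. The 3 PLP-GFP libraries were the lowest of the 9 and close together, and the other groups overlapped. Cdk4 was higher in NDRG1-eGFP relative to PLP-GFP cells by 0.62 ± 0.14 (SE, adjusted p = 0.00413), a call made in all 9 fits that left out 1 library, and lower in PLP-GFP relative to PDGFRa-GFP cells, at -0.54 ± 0.14 (SE, adjusted p = 0.0261), a call made in 5 of them (-0.67 to -0.44). Its transcript is short, 2053 bases, and with the trend on transcript length removed the values were 0.16 and -0.37 and neither was called. Cdk2, which takes cells through S phase (chromosome 10, 128697939 to 128705031), had 8.17, 7.98 and 8.66 in PDGFRa-GFP libraries, 8.10, 7.58 and 7.89 in PLP-GFP libraries and 8.62, 8.68 and 8.54 in NDRG1-eGFP libraries. NDRG1-eGFP libraries lay above PLP-GFP libraries, with a difference of 0.75 ± 0.25 (SE, adjusted p = 0.0296), called in 4 of the 9 fits with 1 library left out (0.61 to 0.88) and not with the length trend removed (0.42, adjusted p = 0.178). Per kilobase Cdk4 stood above Cdk2, at 11.29, 10.75 and 11.37 against 7.0, 6.59 and 7.35 for PDGFRa-GFP, PLP-GFP and then NDRG1-eGFP cells. None of the 5 drivers was called between NDRG1-eGFP and PDGFRa-GFP cells.

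**Figure D2:**
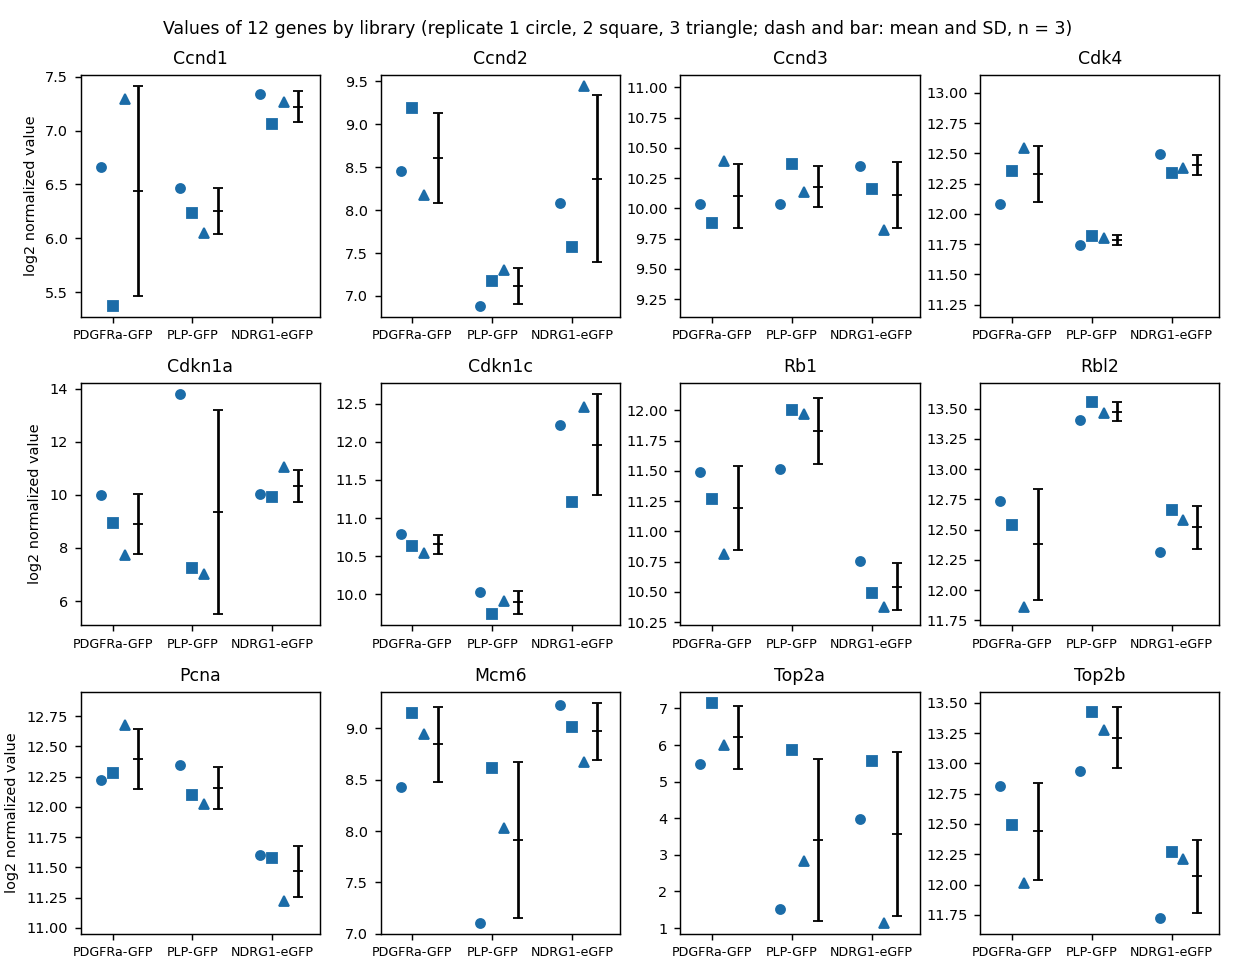
Log2 normalized values of 12 cell cycle genes in each library, by reporter, with mean and SD (n = 3) beside the points and a vertical scale of its own in each panel. Ccnd2 and Cdk4 are lowest in PLP-GFP libraries, Rb1, Rbl2 and Top2b are highest there, Cdkn1c is highest and Pcna lowest in NDRG1-eGFP libraries, and 1 PLP-GFP library holds Cdkn1a at 13.79.

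Among the inhibitors, Cdkn1c set the NDRG1-eGFP cells apart. Cdkn1c encodes p57, an imprinted inhibitor of cyclin-dependent kinases (chromosome 7, 143458339 to 143461050), and had log2 values of 10.79, 10.63 and 10.55 in PDGFRa-GFP libraries, 10.03, 9.74 and 9.91 in PLP-GFP libraries and 12.22, 11.21 and 12.45 in NDRG1-eGFP libraries. The groups did not overlap: all NDRG1-eGFP libraries were above all PDGFRa-GFP libraries, which were above all PLP-GFP libraries. Cdkn1c was higher in NDRG1-eGFP cells by 2.07 ± 0.27 (SE, adjusted p = 0.000291) against PLP-GFP cells and by 1.31 ± 0.27 (SE, adjusted p = 0.00883) against PDGFRa-GFP cells, and both calls were made in all 9 fits that left out 1 library (1.82 to 2.45 and 1.06 to 1.68). With the length trend removed the values were 1.55 and 1.01 (adjusted p = 0.00332 and 0.0467). PLP-GFP against PDGFRa-GFP gave -0.76 ± 0.27 (SE, adjusted p = 0.0770) and was not called. The fibroblast-like marker medians were 7.52 to 9.89 in NDRG1-eGFP, 9.59 to 10.33 in PDGFRa-GFP and 3.14 to 5.66 in PLP-GFP libraries. The microglial medians were 8.43 to 9.33, 7.63 to 8.49 and 7.09 to 7.52 in the same order, and both lists were lowest in PLP-GFP libraries. The part of these cells in the Cdkn1c values was not tested.

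Cdkn1a, which encodes p21, the inhibitor induced by p53 and by stress (chromosome 17, 29090976 to 29100727), had 9.996, 8.95 and 7.75 in PDGFRa-GFP libraries, 13.79, 7.23 and 7.03 in PLP-GFP libraries and 10.04, 9.93 and 11.03 in NDRG1-eGFP libraries. PLP-GFP replicate 1 was the highest of all 9 libraries and the other PLP-GFP libraries the lowest. No comparison passed the test, with a log2 fold change of 0.98 ± 1.45 (SE, adjusted p = 0.604) for NDRG1-eGFP against PLP-GFP. Without PLP-GFP replicate 1 that value was 3.20 (adjusted p = 0.00284). For PLP-GFP against PDGFRa-GFP the value was 0.45 with all libraries and -1.77 without PLP-GFP replicate 1 (adjusted p = 0.0730), and with PDGFRa-GFP replicate 3 also left out it was -2.34 (adjusted p = 0.00750). The 5 genes most like Cdkn1a were Adam15, Pdxk, Phactr3, Mt2 and Usf2 (Pearson r of 0.876 to 0.938 over 9 libraries). Without PLP-GFP replicate 1 the value for the metallothionein gene Mt2 was 0.985 and those of the other 4 ran from 0.706 to 0.852, over 8 libraries. Mdm2, another gene that p53 induces, had 12.72, 12.93 and 12.62 in PDGFRa-GFP libraries, 12.96, 12.56 and 12.76 in PLP-GFP libraries and 12.64, 12.68 and 12.77 in NDRG1-eGFP libraries, and stayed between 12.56 and 12.96, with PLP-GFP replicate 1 the highest.

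Cdkn2d, an INK4 inhibitor of Cdk4 and Cdk6 (chromosome 9, 21288410 to 21291407), had 11.63, 11.89 and 12.57 in PDGFRa-GFP libraries, 11.74, 11.46 and 11.42 in PLP-GFP libraries and 12.60, 12.34 and 12.25 in NDRG1-eGFP libraries. All NDRG1-eGFP libraries were above the PLP-GFP libraries, by 0.86 ± 0.22 (SE, adjusted p = 0.00947), while PDGFRa-GFP libraries overlapped both. With 1423 bases it has a short transcript, and the value was 0.20 and not called with the length trend removed. Cdkn1b, which encodes p27 and restrains progenitor division (chromosome 6, 134920401 to 134925513), had 9.47, 9.54 and 9.98 in PDGFRa-GFP libraries, 9.84, 9.42 and 9.22 in PLP-GFP libraries and 9.21, 8.89 and 9.005 in NDRG1-eGFP libraries. The NDRG1-eGFP libraries were the lowest of the 9, though the differences, -0.46 ± 0.22 (SE, adjusted p = 0.106) against PLP-GFP and -0.63 ± 0.22 (SE, adjusted p = 0.0667) against PDGFRa-GFP, did not pass. Cdkn2c, another INK4 gene, had 8.13, 8.25 and 9.48 in PDGFRa-GFP libraries, 8.41, 8.03 and 8.30 in PLP-GFP libraries and 9.30, 8.58 and 8.57 in NDRG1-eGFP libraries, with PDGFRa-GFP replicate 3 as the highest library and no call. Of the 2 genes that only share the name, Cdkn2aip was not called and Cdkn2aipnl was higher in NDRG1-eGFP relative to PLP-GFP cells (0.56 ± 0.18 SE, adjusted p = 0.0264; 0.02 with the length trend removed).

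The pocket proteins, which hold E2F factors in check, had their highest values in PLP-GFP libraries. Rb1, the retinoblastoma gene (chromosome 14, 73183673 to 73325822), had log2 values of 11.49, 11.27 and 10.81 in PDGFRa-GFP libraries, 11.51, 12.005 and 11.97 in PLP-GFP libraries and 10.76, 10.49 and 10.38 in NDRG1-eGFP libraries. NDRG1-eGFP libraries were below all others, and PLP-GFP libraries above all others. Rb1 was lower in NDRG1-eGFP cells, at -1.29 ± 0.21 (SE, adjusted p = 0.000790) against PLP-GFP and -0.65 ± 0.21 (SE, adjusted p = 0.0478) against PDGFRa-GFP cells. The first call was made in all 9 fits with 1 library left out (-1.44 to -1.20) and with the length trend removed (-0.97), and the second in 2 of 9 and not with the length trend removed (-0.61). The difference of 0.64 ± 0.21 (SE, adjusted p = 0.0573) between PLP-GFP and PDGFRa-GFP cells was not called. Rbl2, which encodes p130, the pocket protein of resting cells (chromosome 8, 91070057 to 91123844), had 12.74, 12.54 and 11.86 in PDGFRa-GFP libraries, 13.41, 13.56 and 13.46 in PLP-GFP libraries and 12.32, 12.66 and 12.58 in NDRG1-eGFP libraries. Its PLP-GFP libraries lay above every library of the other groups, which overlapped. Rbl2 was lower in NDRG1-eGFP relative to PLP-GFP cells (-0.96 ± 0.20 SE, adjusted p = 0.00356) and higher in PLP-GFP relative to PDGFRa-GFP cells (1.09 ± 0.20 SE, adjusted p = 0.0101). Both calls held with the length trend removed (-0.58 and 0.79), and the second was lost only without PLP-GFP replicate 2 among the 9 fits that left out 1 library.

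Of the E2F factors, E2f5, a partner of p130 that represses cycle genes (chromosome 3, 14578641 to 14606309), had 10.63, 10.47 and 10.47 in PDGFRa-GFP libraries, 10.57, 10.44 and 10.60 in PLP-GFP libraries and 11.27, 11.28 and 11.27 in NDRG1-eGFP libraries. The 3 NDRG1-eGFP libraries were nearly equal and lay above all others, with differences of 0.74 ± 0.13 (SE, adjusted p = 0.00111) against PLP-GFP and 0.75 ± 0.13 (SE, adjusted p = 0.00294) against PDGFRa-GFP cells. Both calls were made in all 9 fits with 1 library left out. Its transcript has 1779 bases, and with the length trend removed the values were 0.18 and 0.45 and no longer called. E2f2, an activating E2F (chromosome 4, 136172394 to 136196057), had 5.08, 5.83 and 6.47 in PDGFRa-GFP libraries, 7.38, 7.503 and 6.93 in PLP-GFP libraries and 5.93, 6.07 and 6.59 in NDRG1-eGFP libraries. All PLP-GFP libraries were above the others, and the difference from PDGFRa-GFP cells was called (1.48 ± 0.45 SE, adjusted p = 0.0472), but in 1 of the 9 fits with 1 library left out and not with the length trend removed (1.19). E2f3, also an activator, had 7.63, 7.66 and 7.29 in PDGFRa-GFP libraries, 8.53, 8.51 and 8.14 in PLP-GFP libraries and 8.31, 6.93 and 7.94 in NDRG1-eGFP libraries, with the PLP-GFP libraries above the PDGFRa-GFP libraries and no call. E2f4, a repressor and the E2F of resting cells, had 10.47, 10.33 and 9.70 in PDGFRa-GFP libraries, 10.35, 10.41 and 10.53 in PLP-GFP libraries and 10.57, 10.73 and 10.81 in NDRG1-eGFP libraries. PDGFRa-GFP replicate 3 was its lowest library. Neither E2f4 nor E2f6, another repressor with group means of 9.32, 9.48 and 9.61 for PDGFRa-GFP, PLP-GFP and then NDRG1-eGFP cells, was called. As a set, the 7 genes had median log2 fold changes of -0.67, 0.64 and 0.29 in the 3 comparisons, against 0.08, 0.03 and 0.14 over all genes, with 1 higher and 2 lower, 2 and 0, and 1 and 1 called. These calls were 42.9%, 28.6% and 28.6% of the set, against 48.3%, 17.0% and 21.1% of all genes.

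**Figure D3:**
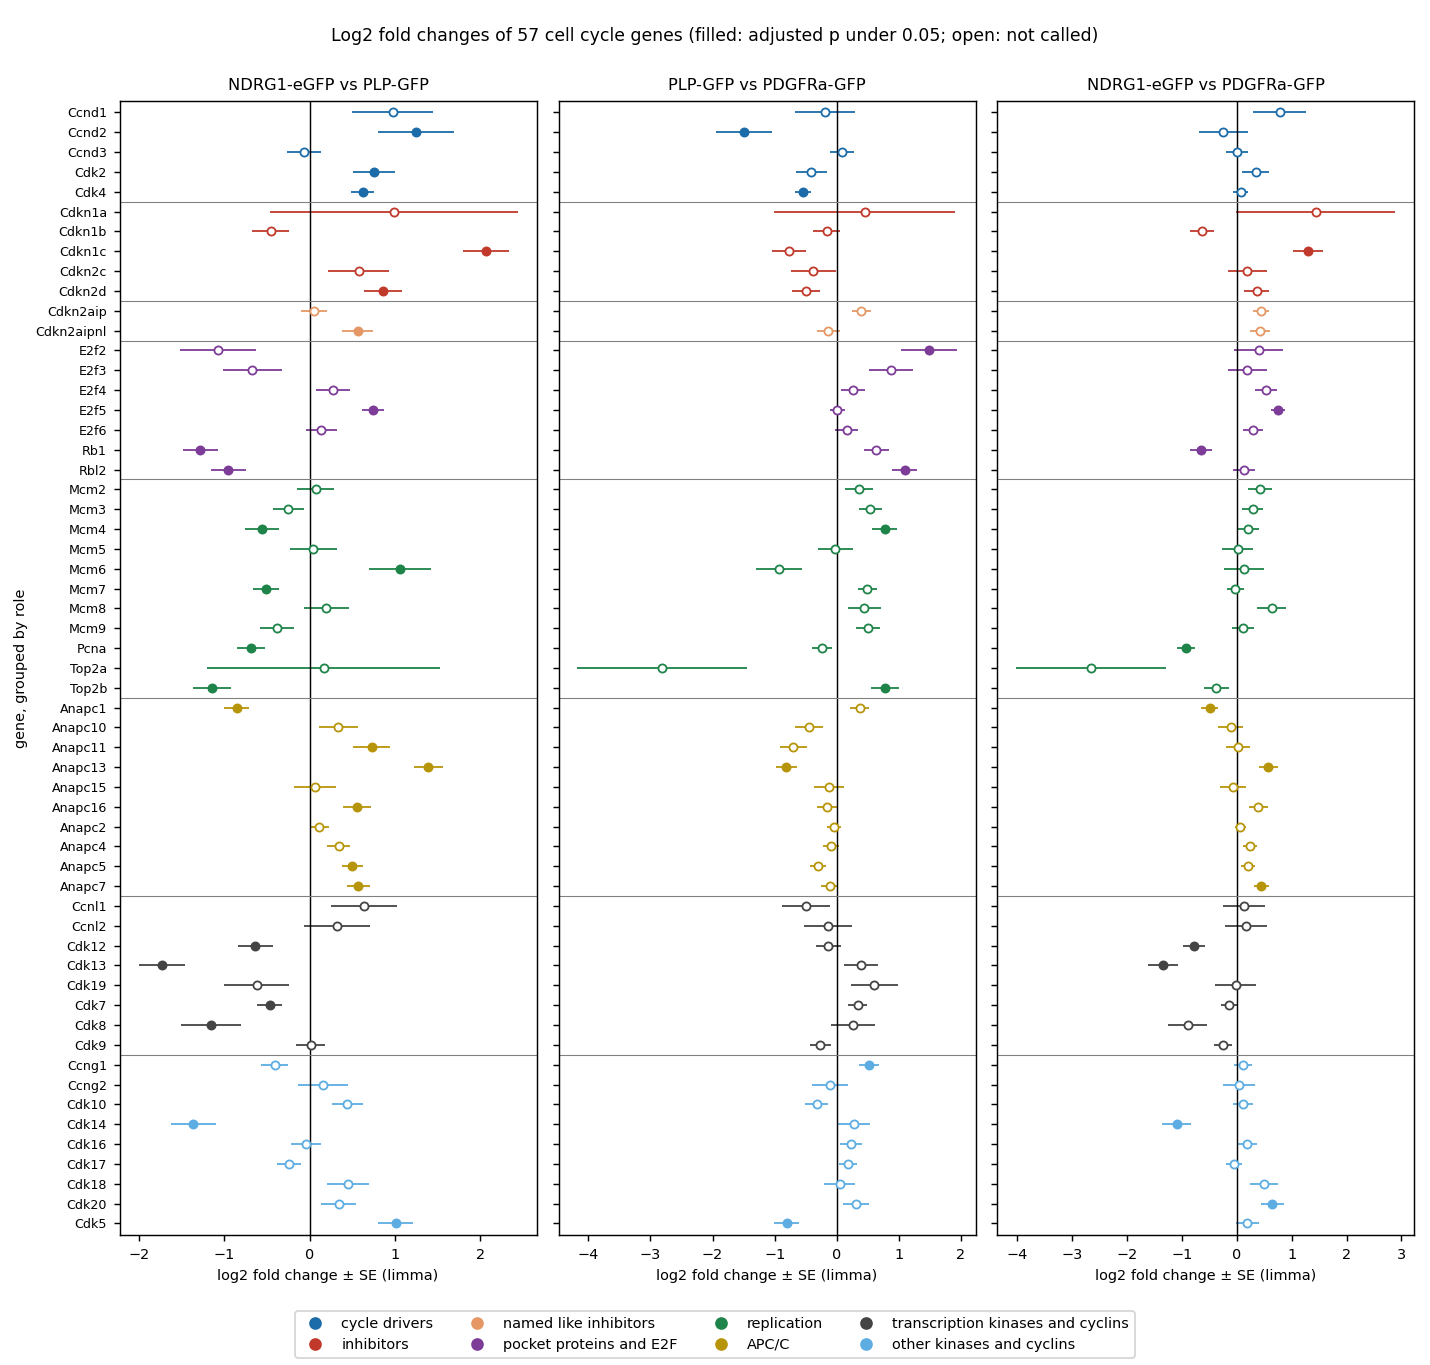
Log2 fold changes with SE from limma for the 57 genes in the 3 comparisons, each panel with its own horizontal scale. Filled points passed the adjusted p of 0.05. Rb1, Rbl2, Top2b and Cdk13 lie left of 0 and Cdkn1c and Anapc13 right of it for NDRG1-eGFP against PLP-GFP, and the wide bars belong to Cdkn1a and Top2a.

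The helicase genes whose promoters are printed above did not share a direction. Mcm6 (chromosome 1, 128331590 to 128359664) had log2 values of 8.43, 9.15 and 8.95 in PDGFRa-GFP libraries, 7.11, 8.61 and 8.03 in PLP-GFP libraries and 9.23, 9.01 and 8.67 in NDRG1-eGFP libraries. PLP-GFP replicate 1 was the lowest library, and the PLP-GFP libraries lay below the NDRG1-eGFP libraries. Mcm6 was higher in NDRG1-eGFP relative to PLP-GFP cells by 1.06 ± 0.36 (SE, adjusted p = 0.0345). The call was made in 5 of the 9 fits with 1 library left out and was lost, among others, without PLP-GFP replicate 1 (0.65, adjusted p = 0.119). It held with the length trend removed (1.30, limma adjusted p = 0.0224). Mcm7 (chromosome 5, 138164583 to 138172422) went the other way, with 10.57, 10.64 and 10.27 in PDGFRa-GFP libraries, 10.93, 11.06 and 10.96 in PLP-GFP libraries and 10.28, 10.67 and 10.47 in NDRG1-eGFP libraries. Its NDRG1-eGFP libraries were below its PLP-GFP libraries (-0.51 ± 0.16 SE, adjusted p = 0.0206), and this call held with the length trend removed (-0.66) and in 6 of the 9 fits with 1 library left out. Mcm3 had group means of 9.04, 9.58 and 9.33 and Mcm5 of 8.69, 8.66 and 8.70 for PDGFRa-GFP, PLP-GFP and then NDRG1-eGFP cells, and neither was called in any comparison.

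Mcm4 (chromosome 16, 15623897 to 15637400) had 10.94, 10.28 and 10.72 in PDGFRa-GFP libraries, 11.24, 11.68 and 11.33 in PLP-GFP libraries and 10.77, 11.10 and 10.69 in NDRG1-eGFP libraries. The PLP-GFP libraries lay above all others. Mcm4 was lower in NDRG1-eGFP relative to PLP-GFP cells (-0.56 ± 0.20 SE, adjusted p = 0.0408) and higher in PLP-GFP relative to PDGFRa-GFP cells (0.77 ± 0.20 SE, adjusted p = 0.0300). These calls were made in 5 and 6 of the 9 fits with 1 library left out and in neither case with the length trend removed (-0.53 and 0.62). Mcm2 had 8.90, 8.75 and 9.005 in PDGFRa-GFP libraries, 9.06, 9.34 and 9.32 in PLP-GFP libraries and 9.71, 9.26 and 8.97 in NDRG1-eGFP libraries, with overlapping groups between NDRG1-eGFP and PLP-GFP and no call. Mcm8 and Mcm9, which act in recombination repair, had group means of 8.63, 9.07 and 9.27 and of 8.94, 9.44 and 9.06 for PDGFRa-GFP, PLP-GFP and then NDRG1-eGFP cells and were not called. Over the 8 Mcm genes, 1 was called higher and 2 lower for NDRG1-eGFP against PLP-GFP, 1 higher for PLP-GFP against PDGFRa-GFP, and none in the remaining comparison at the adjusted threshold of limma, where the unadjusted p-values were 0.0343 for Mcm8 and 0.0770 or more for the other 7. Over all genes, 48.3%, 17.0% and 21.1% were called in these comparisons.

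Pcna, the replication clamp (chromosome 2, 132249162 to 132253314), had log2 values of 12.22, 12.28 and 12.68 in PDGFRa-GFP libraries, 12.35, 12.10 and 12.02 in PLP-GFP libraries and 11.60, 11.57 and 11.23 in NDRG1-eGFP libraries. All NDRG1-eGFP libraries were below all others, and the remaining groups overlapped. Pcna was lower in NDRG1-eGFP cells, at -0.69 ± 0.17 (SE, adjusted p = 0.00711) against PLP-GFP and -0.92 ± 0.17 (SE, adjusted p = 0.00422) against PDGFRa-GFP cells. It was so in all 9 fits with 1 library left out (-0.76 to -0.57 and -1.01 to -0.78) and more so with the length trend removed (-1.32 and -1.22). These values are uncertain, because 19.1% of its 50-base transcript windows also occur in transcripts of another gene, as do 16.5% of those of Mcm7, 10.7% of Cdk10 and 5.31% of Cdk8. Genes with over 5% of shared windows were lower in NDRG1-eGFP cells as a class: of 1000 such genes, 478 were lower and 88 higher against PLP-GFP cells, and 454 lower and 22 higher against PDGFRa-GFP cells. The part of shared sequence in the change of Pcna was not tested.

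Top2b, the other type II topoisomerase (chromosome 14, 16365179 to 16435462), had 12.81, 12.49 and 12.01 in PDGFRa-GFP libraries, 12.94, 13.43 and 13.28 in PLP-GFP libraries and 11.72, 12.27 and 12.21 in NDRG1-eGFP libraries. In contrast to Top2a it was abundant, and its PLP-GFP libraries lay above every other library. Top2b was lower in NDRG1-eGFP relative to PLP-GFP cells (-1.15 ± 0.22 SE, adjusted p = 0.00224) in all 9 fits with 1 library left out and with the length trend removed (-0.55; adjusted p = 0.0309). The higher level in PLP-GFP relative to PDGFRa-GFP cells (0.77 ± 0.22 SE, adjusted p = 0.0398) was called in 3 of those 9 fits and not with the length trend removed (0.56). The 11 replication genes together had median log2 fold changes of -0.25, 0.44 and 0.12 in the 3 comparisons, against 0.08, 0.03 and 0.14 over all genes.

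Of the 10 subunits of the anaphase-promoting complex, 5 were higher and 1 lower in NDRG1-eGFP relative to PLP-GFP cells, with a median log2 fold change of 0.42 against 0.08 over all genes. These calls were 60.0% of the subunits, against 48.3% of all genes (26.1% higher and 22.2% lower). Anapc13, a small subunit (chromosome 9, 102626296 to 102634425), had log2 values of 10.75, 11.02 and 11.14 in PDGFRa-GFP libraries, 10.40, 9.87 and 10.20 in PLP-GFP libraries and 11.62, 11.51 and 11.51 in NDRG1-eGFP libraries. None of the 3 groups overlapped, with NDRG1-eGFP highest and PLP-GFP lowest. Its log2 fold changes were 1.39 ± 0.17 (SE, adjusted p = 0.000183) for NDRG1-eGFP against PLP-GFP, -0.81 ± 0.17 (SE, adjusted p = 0.0146) for PLP-GFP against PDGFRa-GFP and 0.58 ± 0.17 (SE, adjusted p = 0.0359) for NDRG1-eGFP against PDGFRa-GFP. Its transcript was the shortest of the 57 genes, at 727 bases, and with the length trend removed the first value was 0.58 (adjusted p = 0.0114) and the others, -0.16 and 0.42, were not called. The 3 calls were made in 9, 7 and 3 of the 9 fits with 1 library left out. Anapc1, the large scaffold subunit with a transcript of 8942 bases (chromosome 2, 128610104 to 128687391), moved the opposite way, with 12.73, 12.78 and 12.42 in PDGFRa-GFP libraries, 12.79, 13.22 and 13.03 in PLP-GFP libraries and 12.08, 12.09 and 12.29 in NDRG1-eGFP libraries. All NDRG1-eGFP libraries were below all others, at -0.86 ± 0.15 (SE, adjusted p = 0.00126) against PLP-GFP and -0.49 ± 0.15 (SE, adjusted p = 0.0417) against PDGFRa-GFP cells, and with the length trend removed the values were -0.24 and -0.15 and not called. The first of these calls was made in all 9 fits with 1 library left out and the second in 2.

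Anapc7 (chromosome 5, 122421693 to 122444912), a subunit of the arm that binds the activators, had 10.998, 10.98 and 11.30 in PDGFRa-GFP libraries, 11.06, 10.94 and 10.93 in PLP-GFP libraries and 11.61, 11.53 and 11.496 in NDRG1-eGFP libraries. NDRG1-eGFP libraries were above all others, by 0.57 ± 0.13 (SE, adjusted p = 0.00589) against PLP-GFP and 0.45 ± 0.13 (SE, adjusted p = 0.0368) against PDGFRa-GFP cells. The first call held with the length trend removed (0.60) and in all 9 fits with 1 library left out, while the second was made in 1 of 9 and not with the length trend removed (0.34). Anapc5 (0.50 ± 0.12 SE, adjusted p = 0.00788), Anapc11, the RING subunit that recruits the ubiquitin-conjugating enzyme (0.73 ± 0.22 SE, adjusted p = 0.0188), and Anapc16 (0.56 ± 0.17 SE, adjusted p = 0.0188) were also higher in NDRG1-eGFP relative to PLP-GFP cells. Of these, Anapc5 was called in all 9 fits with 1 library left out, and Anapc11 and Anapc16 in 5 and 5. With the length trend removed Anapc11 kept its call (0.66), while Anapc5 (0.29, adjusted p = 0.119) and Anapc16 (0.02, adjusted p = 0.941) did not. Anapc2, the cullin subunit, had 13.73, 13.65 and 13.69 in PDGFRa-GFP libraries, 13.55, 13.70 and 13.70 in PLP-GFP libraries and 13.64, 13.81 and 13.83 in NDRG1-eGFP libraries and was called in no comparison, and neither were Anapc4, Anapc10 and Anapc15. With the length trend removed Anapc4 was called higher in NDRG1-eGFP relative to PLP-GFP cells (0.45, limma adjusted p = 0.0135).

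Of the 8 transcription kinases and cyclins, 4 were lower and none was higher in NDRG1-eGFP relative to PLP-GFP cells, where 22.2% of all genes were lower and 26.1% higher. Their median log2 fold change was -0.55, against 0.08 over all genes. Cdk13, which with cyclin K phosphorylates RNA polymerase II during elongation (chromosome 13, 17710315 to 17805097), had log2 values of 10.73, 10.55 and 10.90 in PDGFRa-GFP libraries, 11.14, 11.005 and 11.22 in PLP-GFP libraries and 10.05, 9.34 and 8.77 in NDRG1-eGFP libraries. All 3 NDRG1-eGFP libraries were below all others. The log2 fold changes were -1.74 ± 0.27 (SE, adjusted p = 0.000705) against PLP-GFP and -1.34 ± 0.27 (SE, adjusted p = 0.00745) against PDGFRa-GFP cells, both called in all 9 fits with 1 library left out (-2.07 to -1.43 and -1.68 to -1.03). Its transcript was the longest of the 57, at 12548 bases, and with the length trend removed the values were -1.17 (adjusted p = 0.0244) and -0.90 (adjusted p = 0.106). Cdk12, its close relative (chromosome 11, 98203059 to 98278504), had 10.06, 9.88 and 9.65 in PDGFRa-GFP libraries, 9.55, 9.59 and 10.03 in PLP-GFP libraries and 8.83, 9.23 and 9.20 in NDRG1-eGFP libraries. NDRG1-eGFP libraries were again below the rest, at -0.64 ± 0.20 (SE, adjusted p = 0.0246) and -0.78 ± 0.20 (SE, adjusted p = 0.0233), with -0.11 and -0.60 after removal of the length trend, of which only the second was called. With 1 library left out the calls were made in 7 and 6 of 9 fits.

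Cdk8, a kinase of the Mediator complex (chromosome 5, 146231230 to 146302874), had 7.86, 8.59 and 7.36 in PDGFRa-GFP libraries, 8.02, 8.13 and 8.46 in PLP-GFP libraries and 7.07, 7.43 and 6.64 in NDRG1-eGFP libraries. All NDRG1-eGFP libraries were below all PLP-GFP libraries. Cdk8 was lower in NDRG1-eGFP relative to PLP-GFP cells (-1.15 ± 0.35 SE, adjusted p = 0.0209; -1.30 with the length trend removed), a call made in 6 of the 9 fits with 1 library left out. Cdk19, which replaces Cdk8 in the same module, was far more abundant, at 10.59, 11.19 and 10.57 per kilobase against 6.37, 6.63 and 5.48 for Cdk8 for PDGFRa-GFP, PLP-GFP and then NDRG1-eGFP cells. PDGFRa-GFP replicate 3 held Cdk19 at 12.01, against 13.77 and 13.61 in replicates 1 and 2, and no comparison of it was called. Cdk7, which activates cycle kinases and phosphorylates RNA polymerase II (chromosome 13, 100702631 to 100730939), had 11.20, 11.15 and 11.54 in PDGFRa-GFP libraries, 11.62, 11.81 and 11.46 in PLP-GFP libraries and 11.16, 11.14 and 11.18 in NDRG1-eGFP libraries. NDRG1-eGFP libraries were below PLP-GFP libraries and overlapped PDGFRa-GFP libraries. Cdk7 was lower in NDRG1-eGFP relative to PLP-GFP cells (-0.47 ± 0.15 SE, adjusted p = 0.0243; -0.96 with the length trend removed), a call made in 5 of those 9 fits. Only with the length trend removed was Cdk7 called higher in PLP-GFP relative to PDGFRa-GFP cells among fits of all 9 libraries (0.53, limma adjusted p = 0.0328). Cdk9, the kinase of P-TEFb, had 11.52, 11.54 and 12.14 in PDGFRa-GFP libraries, 11.54, 11.44 and 11.43 in PLP-GFP libraries and 11.56, 11.52 and 11.38 in NDRG1-eGFP libraries, and was not called, with 0.01 ± 0.17 (SE, adjusted p = 0.956) for NDRG1-eGFP against PLP-GFP. With the length trend removed that value was -0.56 (adjusted p = 0.00486). The splicing-linked cyclins Ccnl1 and Ccnl2 had 12.33, 12.49 and 10.89 in PDGFRa-GFP libraries, 11.39, 11.14 and 11.67 in PLP-GFP libraries and 11.66, 11.90 and 12.56 in NDRG1-eGFP libraries, and 12.10, 12.34 and 10.65 in PDGFRa-GFP libraries, 11.68, 11.31 and 11.66 in PLP-GFP libraries and 11.45, 11.84 and 12.32 in NDRG1-eGFP libraries. PDGFRa-GFP replicate 3 was the lowest of the 9 in both, and neither was called. Without that library Ccnl1 was higher in NDRG1-eGFP relative to PLP-GFP cells by 0.64 (adjusted p = 0.0236) and lower in PLP-GFP relative to PDGFRa-GFP cells, at -1.01 (adjusted p = 0.0156).

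The partners of these kinases, which were singled out after their values were seen, did not follow 1 direction either. Ccnk, the cyclin of Cdk12 and Cdk13, had 9.24, 9.16 and 9.55 in PDGFRa-GFP libraries, 9.03, 8.85 and 8.68 in PLP-GFP libraries and 8.30, 8.25 and 8.53 in NDRG1-eGFP libraries. Its NDRG1-eGFP libraries were the lowest, as for both kinases, with -0.96 ± 0.20 (SE, adjusted p = 0.00850) against PDGFRa-GFP cells and, not called, -0.49 ± 0.20 (SE, adjusted p = 0.0623) against PLP-GFP cells. The Cdk7 partners moved against Cdk7: Mnat1 was higher in NDRG1-eGFP relative to PLP-GFP cells by 1.09 ± 0.20 (SE, adjusted p = 0.00147) and Ccnh by 0.46 ± 0.16 (SE, adjusted p = 0.0339) (-0.01 with the length trend removed). The call of Mnat1 was made in all 9 fits with 1 library left out and that of Ccnh in 4. Of the Mediator kinase module, Med12 (-0.97 ± 0.31 SE, adjusted p = 0.0248), its paralog Med12l (-2.71 ± 0.84 SE, adjusted p = 0.0224) and Med13l (-0.54 ± 0.17 SE, adjusted p = 0.0255) were lower in NDRG1-eGFP relative to PLP-GFP cells. All 3 have transcripts of 6940 to 11006 bases, and with the length trend removed the values were -0.36, -2.12 and 0.07 and none was called. With 1 library left out Med12 and Med12l were called in 4 and 4 of 9 fits and Med13l in 5. Med12l was low, at 7.35, 7.21 and 7.05 in PLP-GFP libraries and 3.70, 3.40 and 6.39 in NDRG1-eGFP libraries. Med13 (-0.42 ± 0.18 SE, adjusted p = 0.0763) and the cyclin gene Ccnc (0.02 ± 0.17 SE, adjusted p = 0.928) were not called. Hexim1, the inhibitor of P-TEFb, was higher in NDRG1-eGFP relative to PLP-GFP cells by 0.85 ± 0.19 (SE, adjusted p = 0.00502), with 0.86 after removal of the length trend, while the P-TEFb cyclins Ccnt1 (0.12 ± 0.24 SE, adjusted p = 0.709) and Ccnt2 (-0.01 ± 0.23 SE, adjusted p = 0.979) were not called.

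Among the remaining kinases and cyclins, Cdk5, a kinase of postmitotic cells that acts in oligodendrocyte maturation and needs its own activators in place of a cyclin (chromosome 5, 24418241 to 24423530), had log2 values of 13.99, 14.51 and 13.73 in PDGFRa-GFP libraries, 13.55, 12.92 and 13.32 in PLP-GFP libraries and 14.22, 14.39 and 14.20 in NDRG1-eGFP libraries. PLP-GFP libraries were the lowest, and the other groups overlapped. Cdk5 was higher in NDRG1-eGFP relative to PLP-GFP cells by 1.01 ± 0.21 (SE, adjusted p = 0.00306) and lower in PLP-GFP relative to PDGFRa-GFP cells, at -0.81 ± 0.21 (SE, adjusted p = 0.0279), with 0.55 and -0.64 and no call after removal of the length trend. Its activator gene Cdk5r1, which encodes p35, had 6.96, 7.93 and 7.52 in PDGFRa-GFP libraries, 8.06, 7.49 and 6.61 in PLP-GFP libraries and 4.57, 5.497 and 5.73 in NDRG1-eGFP libraries. The NDRG1-eGFP libraries were below all others, at -2.12 ± 0.49 (SE, adjusted p = 0.00535) against PLP-GFP and -2.20 ± 0.49 (SE, adjusted p = 0.0116) against PDGFRa-GFP cells, both called in all 9 fits with 1 library left out and with the length trend removed (-1.93 and -2.24).

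Cdk14, a kinase that acts with cyclin Y at the membrane in Wnt signalling (chromosome 5, 4803391 to 5420312), had 9.19, 9.73 and 8.95 in PDGFRa-GFP libraries, 9.20, 9.64 and 9.85 in PLP-GFP libraries and 8.48, 8.11 and 8.005 in NDRG1-eGFP libraries. NDRG1-eGFP libraries were below all others, at -1.37 ± 0.26 (SE, adjusted p = 0.00201) against PLP-GFP, called in all 9 fits with 1 library left out, and -1.09 ± 0.26 (SE, adjusted p = 0.0163) against PDGFRa-GFP, called in 6. Both held with the length trend removed (-0.95 and -0.99). Cdk18, Cdk16 and Cdk17, the PCTAIRE kinases of non-dividing cells, ranked with Cdk5 among the more abundant of the 57 genes, at group means per kilobase of 11.82, 11.87 and 12.32 for Cdk18, 11.71, 11.94 and 11.89 for Cdk16 and 10.59, 10.77 and 10.53 for Cdk17 for PDGFRa-GFP, PLP-GFP and then NDRG1-eGFP cells, and none was called. Cdk18 had 14.35, 14.21 and 13.25 in PDGFRa-GFP libraries, 13.92, 13.98 and 14.07 in PLP-GFP libraries and 14.37, 14.25 and 14.69 in NDRG1-eGFP libraries, with PDGFRa-GFP replicate 3 as the lowest library. With the length trend removed Cdk18 was called higher in NDRG1-eGFP relative to PLP-GFP cells (0.69, limma adjusted p = 0.0468). Ccng1, a target of p53 (chromosome 11, 40748552 to 40755311), had 12.34, 12.02 and 11.78 in PDGFRa-GFP libraries, 12.48, 12.62 and 12.61 in PLP-GFP libraries and 11.94, 12.23 and 12.30 in NDRG1-eGFP libraries. It was higher in PLP-GFP relative to PDGFRa-GFP cells by 0.52 ± 0.16 (SE, adjusted p = 0.0486), a call made in 1 of the 9 fits with 1 library left out and not with the length trend removed (0.39). Cdk20, which acts at the primary cilium (chromosome 13, 64432314 to 64441773), had 8.12, 7.85 and 8.39 in PDGFRa-GFP libraries, 8.41, 8.39 and 8.48 in PLP-GFP libraries and 8.74, 8.78 and 8.78 in NDRG1-eGFP libraries. It was higher in NDRG1-eGFP relative to PDGFRa-GFP cells by 0.65 ± 0.21 (SE, adjusted p = 0.0494), a call made in 1 of those 9 fits and not with the length trend removed (0.61). Ccng2 and Cdk10 were not called.

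Other genes of the cycle were read from 4 wider lists, whose counts stand beside 48.3%, 17.0% and 21.1% of all genes called in the 3 comparisons. Of 38 measured genes of origin licensing and replication, 13 were higher and 3 lower for NDRG1-eGFP against PLP-GFP, 1 and 2 for PLP-GFP against PDGFRa-GFP and 2 and 0 for NDRG1-eGFP against PDGFRa-GFP, with median log2 fold changes of 0.44, -0.08 and 0.34. These were 42.1%, 7.89% and 5.26% of the list. Orc2, a subunit of the origin recognition complex, had 11.12, 11.0003 and 11.02 in PDGFRa-GFP libraries, 9.42, 9.48 and 9.34 in PLP-GFP libraries and 11.31, 11.32 and 11.38 in NDRG1-eGFP libraries. The PLP-GFP libraries were well below the rest, which gave 1.93 ± 0.13 (SE, adjusted p = 3.14e-06) for NDRG1-eGFP against PLP-GFP and -1.64 ± 0.13 (SE, adjusted p = 8.24e-05) for PLP-GFP against PDGFRa-GFP, both called in all 9 fits with 1 library left out and with the length trend removed (1.95 and -1.78). Rfc2, part of the clamp loader, was lower (-0.63 ± 0.14 SE, adjusted p = 0.0170) and Rrm2b, a ribonucleotide reductase subunit induced by p53, higher (0.95 ± 0.17 SE, adjusted p = 0.00901) in PLP-GFP relative to PDGFRa-GFP cells. Of 21 measured genes of mitosis and proliferation, 3 were higher and 1 lower, 1 and 0, and 4 and 0, or 19.0%, 4.76% and 19.0%, with medians of 0.34, 0.07 and 0.35. The 1 that was lower was Cdc25a, the phosphatase that activates Cdk2, with 7.88, 7.31 and 7.64 in PDGFRa-GFP libraries, 8.84, 9.10 and 9.56 in PLP-GFP libraries and 7.81, 7.90 and 8.15 in NDRG1-eGFP libraries. Its PLP-GFP libraries lay above all others. The log2 fold changes were -1.21 ± 0.26 (SE, adjusted p = 0.00391) for NDRG1-eGFP against PLP-GFP and 1.55 ± 0.26 (SE, adjusted p = 0.00745) for PLP-GFP against PDGFRa-GFP, both called in all 9 fits with 1 library left out. Cdca8, which encodes borealin of the chromosomal passenger complex and was picked after its values were seen, had 6.45, 6.55 and 6.39 in PDGFRa-GFP libraries, 6.28, 6.43 and 6.40 in PLP-GFP libraries and 7.94, 8.26 and 7.61 in NDRG1-eGFP libraries. All NDRG1-eGFP libraries were above all others, by 1.56 ± 0.31 (SE, adjusted p = 0.00244) against PLP-GFP and 1.47 ± 0.31 (SE, adjusted p = 0.00899) against PDGFRa-GFP cells. Both were called in all 9 fits with 1 library left out and with the length trend removed (0.96 and 1.18). Tpx2, a spindle assembly factor picked in the same way, was higher in NDRG1-eGFP relative to PDGFRa-GFP cells by 1.24 ± 0.38 (SE, adjusted p = 0.0421), a call made in 1 of those 9 fits and not with the length trend removed (adjusted p = 0.0531). Mad1l1, a spindle checkpoint gene, was higher in NDRG1-eGFP relative to PDGFRa-GFP cells by 0.84 ± 0.15 (SE, adjusted p = 0.00410).

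Of 26 measured partners of the SCF ligase, the anaphase-promoting complex and the pocket proteins, 4 were higher and 6 lower, 2 and 0, and 1 and 2 in the 3 comparisons, with medians of -0.06, 0.00 and 0.06. These were 38.5% and 7.69% of the list in the first comparisons and 3 of 26 genes in the last. Of 31 measured partners of the other kinases, 9 were higher and 9 lower, 0 and 0, and 3 and 6, or 58.1%, 0.0% and 29.0%, with medians of 0.12, -0.12 and 0.11. In PLP-GFP against PDGFRa-GFP, where limma called none of these 31, 8 had an unadjusted p under 0.05. Some genes of these lists that were called lower in NDRG1-eGFP relative to PLP-GFP cells share sequence with other genes, so their values are uncertain. The largest shares were in Cdk2ap1 (-3.36 ± 0.28 SE, adjusted p = 1.67e-05, 56.1% of windows shared), the pocket protein partner Hdac1 (-1.25 ± 0.12 SE, adjusted p = 5.25e-05, 35.3%) and Ccnyl1 (-2.02 ± 0.21 SE, adjusted p = 6.07e-05, 23.7%). Tfdp1 (16.8%), Ccni (14.2%) and Cables2 (8.37%) shared fewer.

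Transcript length moved with the groups. The slope of each library's deviation from the gene mean, in log2 units per doubling of transcript length over all genes, was 0.08, 0.01 and -0.23 in PDGFRa-GFP, 0.12, 0.28 and 0.24 in PLP-GFP and -0.24, -0.17 and -0.09 in NDRG1-eGFP libraries. Among the cell cycle genes, 11 of the 28 with transcripts under their median length of 3270 bases were higher and 4 lower in NDRG1-eGFP relative to PLP-GFP cells, while of the 29 others 3 were higher and 8 lower. Of all genes of any length, 26.1% were higher and 22.2% lower. The shares among all short or all long genes were not counted. With the trend removed, 8 of the 57 were higher and 11 lower for NDRG1-eGFP against PLP-GFP, 2 and 1 for PLP-GFP against PDGFRa-GFP, and 1 and 5 for NDRG1-eGFP against PDGFRa-GFP. How many of all genes were called with the trend removed was not counted. Of the 26 calls between NDRG1-eGFP and PLP-GFP cells, 15 held in all 9 fits with 1 library left out, 15 with the length trend removed, and 9 under both: Cdkn1c, Anapc7 and Anapc13, which were higher, and Rb1, Rbl2, Pcna, Top2b, Cdk13 and Cdk14, which were lower. Of the 11 calls between NDRG1-eGFP and PDGFRa-GFP cells, Cdkn1c and Pcna held under both. None of the 9 calls between PLP-GFP and PDGFRa-GFP cells held in all 9 fits with 1 library left out. How many calls over all genes held under these checks was not counted, so these counts do not set the 57 genes apart. The values of Pcna stay uncertain, because 19.1% of its transcript windows are shared with another gene.

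**Figure D4:**
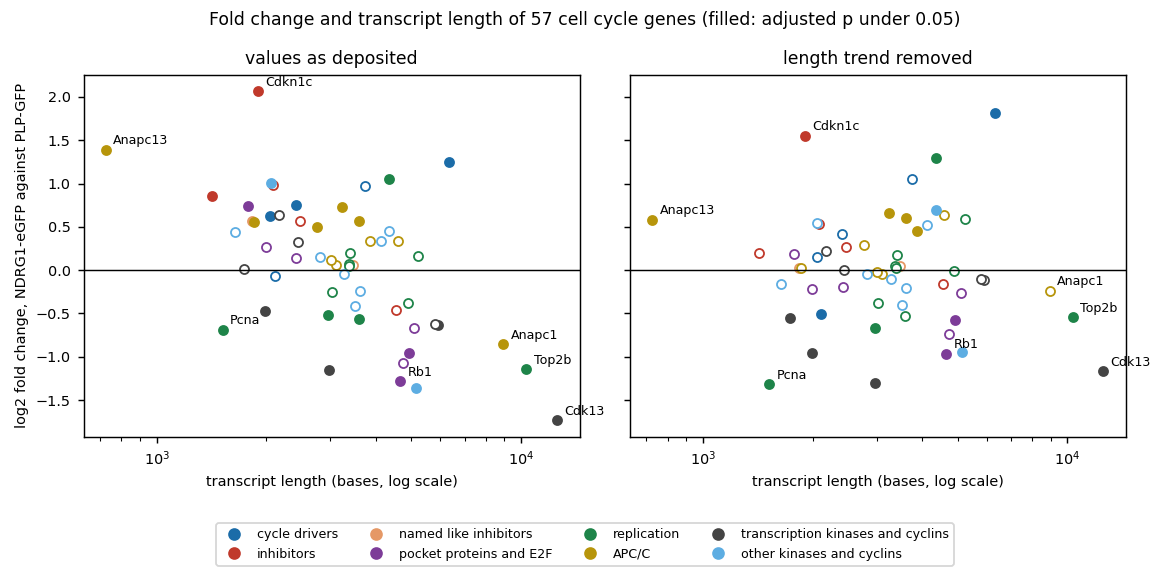
Log2 fold change of the 57 genes for NDRG1-eGFP against PLP-GFP (vertical axis) by transcript length in bases (horizontal axis, log scale), as deposited on the left and with each library's length trend removed on the right. Filled points passed the adjusted p of 0.05. On the left the shortest transcript, Anapc13, lies at 1.39 and the longest, Cdk13, at -1.74, and on the right these are 0.58 and -1.17.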

How the data were processed

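RNA-seq values for 11315 genes were available for 9 libraries, 3 per reporter. The authors deposited log2 values, with no header or label that states the normalization, and the log base was read from the values. BWA, DESeq2 1.2.5 and mm10 are named without a role in the submitters' processing notes. Read depth is unknown, so no counting interval is given.

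All genes and libraries were fitted together with limma 3.58.1 (trend, R 4.3.3) with no replicate block. The 3 comparisons used two-sided tests, with Benjamini-Hochberg adjustment over 11315 genes and a threshold of 0.05. A filter of 1 in at least 3 libraries removed 0 genes. The script was tested on simulated data. Transcript length and shared 50-base windows came from GENCODE M21 on GRCm38, with 11273 symbols matched, and promoters from RefSeq. The trend on length was removed with a lowess fit with a span of 0.3 per library. A value per kilobase is the group mean minus the log2 of the transcript length in kilobases. Since the normalization is not stated, whether the deposited values were already scaled by length is unknown. Values in every library are given for a list of central genes and for up to 3 called genes per role with the smallest adjusted p. From the wider lists, a rule named Mki67 and the called genes with the smallest adjusted p, up to 4 per comparison. Other genes of these lists are named outside this rule and were not chosen by rank. They are Cdca8, Tpx2, Cdk5r1, Mdm2, the partners of the transcription kinases, and Tfdp1, Ccni and Cables2. For Cdkn1a, Ccnd1 and Ccnd2 the 5 genes with the highest Pearson correlation were taken, of which 1 is not reported here. The genes and lists were chosen with earlier results of these data known. A fold change is tested on the deposited log2 scale. Alternatives covered threshold, filter, centring, length, shared sequence, block and left-out libraries.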

Additional observations from a re-analysis of the deposited data

How the results depend on the processing

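The counts of called genes below are given as higher and lower for NDRG1-eGFP against PLP-GFP, then PLP-GFP against PDGFRa-GFP, then NDRG1-eGFP against PDGFRa-GFP, where all 9 libraries gave 14 and 12, 5 and 4, and 5 and 6 of 57. An adjusted p under 0.01 gave 8 and 7, 0 and 0, and 2 and 2. Requiring a log2 change of 1 or more in size gave 5 and 5, 2 and 1, and 1 and 2. Recentring gave 13 and 13, 4 and 5, and 2 and 7. Fitting only the 2 groups compared gave 19 and 15, 1 and 3, and 2 and 2. Removing the length trend gave 8 and 11, 2 and 1, and 1 and 5. Leaving out 1 library gave 8 to 19 and 8 to 16, 0 to 6 and 0 to 6, and 2 to 9 and 2 to 9. PDGFRa-GFP replicate 3 and PLP-GFP replicate 1 left out together, chosen after seeing the data, gave 15 and 15, 9 and 8, and 10 and 9. The replicate block gave 11 and 9, 1 and 1, and 2 and 3, but same-numbered libraries did not deviate together (correlations of -0.234 to 0.094), so the numbers were not taken as pairs. The shares of all genes called under these alternatives were not counted, so these counts do not compare the 57 genes with the whole table. The cause of these changes was not tested.

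Of 46 calls, 25 were lost with the length trend removed, 19 with the replicate block and 13 with only the 2 groups. Recentring lost 5, the fit without both libraries 4 and robust variances 2. With genes of over 5% shared windows left out, 40 calls held and 2 were lost. The calls of Pcna, Mcm7 and Cdk8 were not refitted there, because these genes were themselves left out. None was lost with no filter or with 5 added on the linear scale. Among values called with all libraries or under the alternative, 5 took the opposite sign, while sign changes of values called in neither were not counted. For NDRG1-eGFP against PLP-GFP with the length trend removed these were Cdk9 at -0.56, Ccnh at -0.0068, Med13l at 0.0741 and Ccnt2 at 0.59. For PLP-GFP against PDGFRa-GFP without both libraries it was Cdkn1a at -2.34. Read depth is unknown, and 3 libraries a group limit the precision.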
